A study of Mus musculus with 6 samples.

Results

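Transcripts of 37 coagulation and fibrinolysis genes were measured in mouse liver after ischemia and reperfusion (I/R), with and without ginsenoside Rk2. The members were the rows of the deposited count table whose gene name stood in a list of factors, cofactors, inhibitors, receptors and activators of clotting and clot lysis. All 37 were among the 15454 genes of that table, and all 37 passed the filter on low counts that left 12411 genes for testing. They were kept apart as 21 procoagulant, 9 anticoagulant and 7 fibrinolytic genes. Livers came from male mice of the C57BL/6 strain, 8 to 10 weeks old, in which 75% of the liver had been made ischemic at body temperature and then reperfused. In the I/R group 3 mice had received vehicle, and in the I/R+Rk2 group 3 mice had received Rk2, a saponin from ginseng. Per the authors, the sequenced I/R+Rk2 livers were from the higher Rk2 dose of their study, and injections were intraperitoneal. Vehicle or Rk2 was given 2 days ahead of the operation and again as reperfusion began. Both groups therefore carried the injury, and since no sham-operated liver was analysed here, each difference is between injured livers only. The authors report less liver injury in mice given Rk2, so the degree of injury was not held equal between the groups.

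Clotting proceeds as a chain of proteases that ends in thrombin, which cuts fibrinogen into the fibrin of a clot. Hepatocytes secrete most of these proteases, their cofactors and their inhibitors into plasma, and several of them bind calcium only after a vitamin K-dependent carboxylation. Endothelial cells hold thrombin in check through thrombomodulin and the endothelial protein C receptor, which together activate protein C, and plasmin, made from plasminogen by its activators, dissolves fibrin.

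The 37 genes did not move together. The 3 fibrinogen chains fell, and most other hepatocyte clotting factors and inhibitors rose by less than 2-fold. Of 24 hepatocyte genes 14 rose, but 7 did when libraries were scaled by their size alone. The receptors that activate protein C (Procr, Thbd), the plasminogen activators (Plat, Plau) and the urokinase receptor (Plaur) fell by more than 2-fold. Serpina10, an inhibitor gene of hepatocytes, also fell, by 2.01-fold. By edgeR's quasi-likelihood test with Benjamini-Hochberg adjustment over all genes, 17 of the 37 rose, 9 fell and 11 did not pass an adjusted p of 0.05. The background was high, since 43.9% of all genes tested passed the same limit, 20.3% higher and 23.7% lower in I/R+Rk2. Past a fold change of 2 as well, 6 members fell and 0 rose, while over all genes 14.6% passed both limits, 11.4% lower and 3.17% higher. The normalised counts of the 2 groups did not overlap in 29 of 37 members, against 57.4% of all genes. The median log2 fold change, I/R+Rk2 over I/R, was 0.22 over the members and -0.01 over all genes tested.

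The number of rises depended on how the libraries were scaled, and the number of falls hardly did. With library size alone in place of the trimmed mean of M values (TMM), 9 members rose and 9 fell, and over all genes 1320 rose and 3481 fell in place of 2516 and 2938. That scaling moved the median of all genes to -0.17, and the 8 rises that no longer passed then lay between 0.15 and 0.28 on the log2 scale. With FPKM (fragments scaled to transcript length and to the fragments mapped) in place of counts and no filter, 7 members rose and 9 fell. Without I/R+Rk2 liver 2, 10 members rose, and without I/R liver 1 or I/R liver 3, 11 did.

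**Figure D1:**
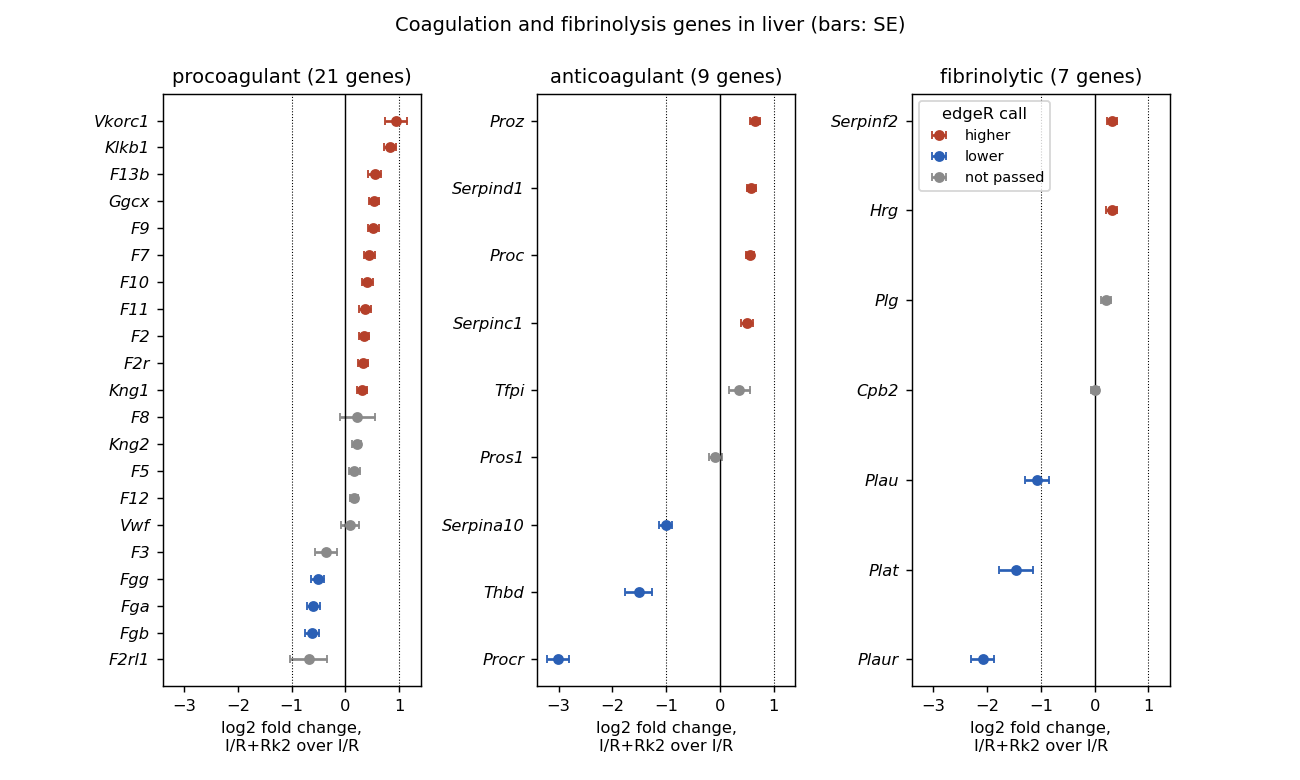
Log2 fold change of each of the 37 genes (x axis, I/R+Rk2 over I/R) with its standard error as a bar, in 1 panel for each class. Red points rose and blue points fell at an edgeR adjusted p below 0.05, grey points did not pass, and dotted lines mark a fold change of 2. The procoagulant panel holds 11 rises and 3 falls, the fibrinogen chains. The rises include Ggcx and Vkorc1, whose vitamin K cycle also serves anticoagulant proteins. The largest falls are Procr and Thbd among anticoagulant genes and Plaur, Plat and Plau among fibrinolytic genes.

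The 3 fibrinogen chains lie side by side on chromosome 3 (mm10), Fgg at chr3:83007724-83015049, Fga at chr3:83026076-83033627 and Fgb at chr3:83040141-83049863, with 11026 and 6513 bases between them and 0 protein-coding genes in the gaps. Fga and Fgg are on the plus strand and Fgb on the minus strand. Their promoters are shown since these neighbours fell together, and that of F9, the factor IX gene on chromosome X, since it rose and holds 3 of the same 4 motifs. The sequences are RefSeq's for GRCm38.p6 and run 5′ to 3′ on the strand of the gene, ending at the base before its RefSeq start. In Fga the last 77 bases, which GENCODE annotates as exon and which hold its match to the last of these motifs, were left out. Capitals mark matches on either strand to TTCNNNGAA (the STAT consensus), CTGGGAA (the STAT3 site of acute-phase genes), TTGCNNAA (a C/EBP core) and GTTAAT (an HNF1 core).
Fga, chr3:83025903-83026075, plus strand: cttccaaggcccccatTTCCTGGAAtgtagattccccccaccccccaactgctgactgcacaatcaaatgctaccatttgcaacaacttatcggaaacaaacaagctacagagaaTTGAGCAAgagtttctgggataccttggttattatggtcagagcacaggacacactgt
Fgb, chr3:83049864-83050113, minus strand: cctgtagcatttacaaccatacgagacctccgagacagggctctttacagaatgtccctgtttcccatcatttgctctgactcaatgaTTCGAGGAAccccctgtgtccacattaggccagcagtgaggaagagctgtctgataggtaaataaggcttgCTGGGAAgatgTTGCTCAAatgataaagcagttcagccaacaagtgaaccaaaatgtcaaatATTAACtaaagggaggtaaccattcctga
Fgg, chr3:83007474-83007723, plus strand: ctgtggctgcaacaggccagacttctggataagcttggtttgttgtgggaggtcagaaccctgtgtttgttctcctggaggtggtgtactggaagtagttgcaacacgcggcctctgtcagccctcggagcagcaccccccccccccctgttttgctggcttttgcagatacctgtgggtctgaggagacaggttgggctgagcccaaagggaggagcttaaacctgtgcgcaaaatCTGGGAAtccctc
F9, chrX:59999214-59999463, plus strand: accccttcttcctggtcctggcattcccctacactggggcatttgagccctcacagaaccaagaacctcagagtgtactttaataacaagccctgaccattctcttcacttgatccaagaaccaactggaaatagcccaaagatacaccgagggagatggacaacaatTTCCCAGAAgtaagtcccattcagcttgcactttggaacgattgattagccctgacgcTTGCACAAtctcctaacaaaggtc
In F9 the first run of capitals holds TTCNNNGAA, and CTGGGAA on the other strand lies within it.

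Of the members, 28 had a promoter in the RefSeq table, with 29 promoters among them. TTCNNNGAA was found in the 250 bases before the start of 4 of these 29 (Fga, Fgb, F9 and Pros1) and in 7.04% of all 32544 promoters. CTGGGAA was in 4 (Fgb, Fgg, F9 and Tfpi) and in 9.14% of all, and GTTAAT in 4 (Fga, in the stretch that GENCODE annotates as exon, Fgb, F13b and Proz) and in 6.47% of all. TTGCNNAA was the most frequent, in 10 of the 29 and in 9.58% of all. Its holders lay on both sides of the comparison, with Fga, Fgb, Plaur and Procr lower and F9, F11, Ggcx, Hrg and Klkb1 higher, and Kng2 not passing.

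Fga encodes the fibrinogen alpha chain, from which thrombin releases fibrinopeptide A. Its normalised count, scaled to a library of 1000000 counts after TMM (CPM), was 10789.5, 10124.5 and 8929.6 in I/R livers 1 to 3 and 6649, 6128 and 6977 in I/R+Rk2 livers 1 to 3. Every I/R+Rk2 liver lay below every I/R liver, with means of 9948 ± 942 and 6585 ± 428 (SD, n = 3 here and below). The log2 fold change was -0.60 (SE 0.13, edgeR adjusted p = 0.00966).

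Fgb encodes the beta chain. It was at 9394, 9319 and 7886 CPM in the I/R livers and at 5959, 5531 and 5809 CPM in the I/R+Rk2 livers. The groups were again apart, with a log2 fold change of -0.62 (SE 0.12, edgeR adjusted p = 0.00702).
Fgg encodes the gamma chain, through which fibrin also binds platelets. It was at 7214, 7385 and 6170.4 CPM against 4722, 4702 and 5116 CPM. The fall of 0.51 on the log2 scale (SE 0.12) had an edgeR adjusted p of 0.0134, which became 0.0518 without I/R+Rk2 liver 2.

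The chains fell nearly in proportion. By FPKM, which corrects for transcript length, Fga made up 42.6% ± 1.001 of the 3 chains in I/R and 41.96% ± 0.804 in I/R+Rk2, Fgg 36.4% ± 0.842 and 37.8% ± 0.926, and Fgb 21.0% ± 0.173 and 20.3% ± 0.730. Fibrinogen took 2.73% ± 0.400 of all counts of a library in I/R and 1.63% ± 0.0698 in I/R+Rk2. The other 34 members together took 1.149% ± 0.0412 and 1.26% ± 0.0523. Fibrinogen was therefore 70.2% ± 2.37 of the members' counts in I/R and 56.4% ± 1.59 in I/R+Rk2. The last member of this group, F13b, encodes the carrier subunit of factor XIII, which cross-links fibrin, and it rose from 119 ± 11.7 to 174 ± 19.0 CPM (0.54 on the log2 scale, edgeR adjusted p = 0.00917).

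F2 encodes prothrombin, the precursor of the protease that cuts fibrinogen. It was at 1166, 1302 and 1224 CPM in the I/R livers and at 1551, 1619 and 1514 CPM in the I/R+Rk2 livers (chr2:91625320-91636414, minus strand). The groups did not overlap, with means of 1231 ± 68.4 and 1561 ± 53.5 and a log2 fold change of 0.34 (SE 0.09, edgeR adjusted p = 0.0223). The rise passed under 9 of 17 alternative settings, and the adjusted p was 0.0551 without I/R liver 1, 0.0748 without I/R liver 3 and 0.0783 without I/R+Rk2 liver 2.

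Among the 7 factors of the common and intrinsic pathways, 4 rose and 0 fell, with F9 and F10 beside F2 and F11. Factor IX and factor X are the vitamin K-dependent proteases that stand ahead of prothrombin, and F9 rose by 0.52 (edgeR adjusted p = 0.0077) and F10 by 0.41 (edgeR adjusted p = 0.013) on the log2 scale. F11, the factor XI zymogen, was 0.36 higher (edgeR adjusted p = 0.0316). Leaving out 1 liver took F10 to an adjusted p of 0.0515 without I/R+Rk2 liver 2, and took F11 to between 0.0647 and 0.0919 without any of the I/R livers or I/R+Rk2 liver 2. With library size alone F10 was 0.25 higher (edgeR adjusted p = 0.0689) and F11 0.20 higher (edgeR adjusted p = 0.203), and by FPKM F10 was 0.24 higher (limma adjusted p of up to 0.0703) and F11 0.16 higher (limma adjusted p of up to 0.306), so that of these rises F9 alone passed there. The cofactors did not pass. F5 (factor V) differed by 0.16 (edgeR adjusted p = 0.235, and 0.47 with an adjusted p of 0.00717 once the trend on gene length was removed), F8 (factor VIII) by 0.22 (edgeR adjusted p = 0.608) and Vwf, which carries factor VIII in plasma, by 0.08 (edgeR adjusted p = 0.720). In these 3 the groups overlapped, and F8 was the lowest of all members at 0.350 FPKM in I/R.

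The starter of the extrinsic pathway and its partner did not pass together. F7 (factor VII) rose from 60.8 ± 5.50 to 82.4 ± 5.87 CPM (0.44 on the log2 scale, edgeR adjusted p = 0.0116, and 0.0512 without I/R liver 3). It did not pass with library size alone (0.28, adjusted p = 0.0844) or by FPKM (0.27 to 0.28, limma adjusted p of up to 0.0876). F3 (tissue factor, the membrane receptor of factor VII) was at 8.17 ± 1.62 and 6.36 ± 1.18 CPM, with overlapping groups (-0.36 on the log2 scale, edgeR adjusted p = 0.189). F7, F10 and Proz lie in a row on chromosome 8, with 1498 and 4237 bases between them, and all 3 rose.

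In the contact system, which starts clotting on charged surfaces and releases bradykinin, 2 of 4 genes rose and 0 fell. Klkb1 encodes plasma prekallikrein. It was at 121, 135 and 142 CPM in the I/R livers and at 207, 255 and 243 CPM in the I/R+Rk2 livers. The groups were well apart, with means of 133 ± 10.5 and 235 ± 24.8, and the log2 fold change of 0.82 (SE 0.11, edgeR adjusted p = 0.00161) was the second largest rise of the 37. It passed under all 17 alternative settings. Its neighbour on chromosome 8, F11, lies 4657 bases away. Of the exonic bases of Klkb1 (chr8:45266689-45294859, minus strand), 43.2% are shared with the overlapping model Gm45753 on the same strand, which had 132 counts over the 6 libraries against 26858 for Klkb1.

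The kininogens, from which kallikrein cuts bradykinin, changed little. Kng1 rose by 0.31 on the log2 scale (edgeR adjusted p = 0.0284), but without any 1 of the 6 livers its adjusted p lay between 0.0506 and 0.0846. Kng2 was 0.21 higher (edgeR adjusted p = 0.0838) and F12, the factor XII zymogen, 0.16 higher (edgeR adjusted p = 0.158). Neither passed, though in both every I/R+Rk2 liver lay above every I/R liver.
Of the receptors for thrombin and related proteases, F2r (PAR1) rose by 0.32 (edgeR adjusted p = 0.0212), with adjusted p between 0.0507 and 0.0653 without I/R liver 1 or 2 or I/R+Rk2 liver 2 or 3. F2r did not pass with library size alone (0.17, edgeR adjusted p = 0.230) or by FPKM (0.15 to 0.17, limma adjusted p of up to 0.304). F2rl1 (PAR2) was at 2.72 ± 0.958 and 1.72 ± 0.444 CPM and did not pass (-0.68 on the log2 scale, edgeR adjusted p = 0.146).

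Both enzymes of the vitamin K cycle rose. Vkorc1, the reductase that recycles vitamin K and the target of warfarin, was at 54.8, 48.5 and 50.03 CPM in the I/R livers and at 134, 79.3 and 81.5 CPM in the I/R+Rk2 livers. I/R+Rk2 liver 1 stood high within its group. The log2 fold change of 0.94 (SE 0.21, edgeR adjusted p = 0.0099) was the largest rise of the 37, and without that liver it was 0.65. The count of that liver was also high for its FPKM, since count per 1000000 counts divided by FPKM, a length in kilobases, was 0.796 there and 0.652 to 0.663 in the other 5 livers. Vkorc1 (chr7:127893063-127895617, minus strand) shares 47.7% of its exonic bases with Gm21974 on the same strand, a gene model that is no row of the count table. Ggcx, the carboxylase that uses the vitamin K, rose from 38.8 ± 1.997 to 55.8 ± 5.07 CPM (0.53 on the log2 scale, edgeR adjusted p = 0.00528). By FPKM the rise of Ggcx was 0.32 to 0.34 and did not pass, with limma adjusted p of 0.0805 to 0.0992.

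The substrates of this carboxylation were mostly higher by counts. Of the 7 vitamin K-dependent proteins, 6 rose (F2, F7, F9, F10, Proc and Proz), 0 fell and Pros1 did not pass. The share that rose over all genes tested was 20.3%. With library size alone and in each FPKM fit F2, F7 and F10 did not pass and 3 of the 7 rose, and without I/R liver 3 or I/R+Rk2 liver 2, 4 of the 7 rose. Their median log2 fold change was 0.44, and their summed level was 2146 to 2400.4 CPM in the I/R livers and 2979 to 3148 CPM in the I/R+Rk2 livers.

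**Figure D2:**
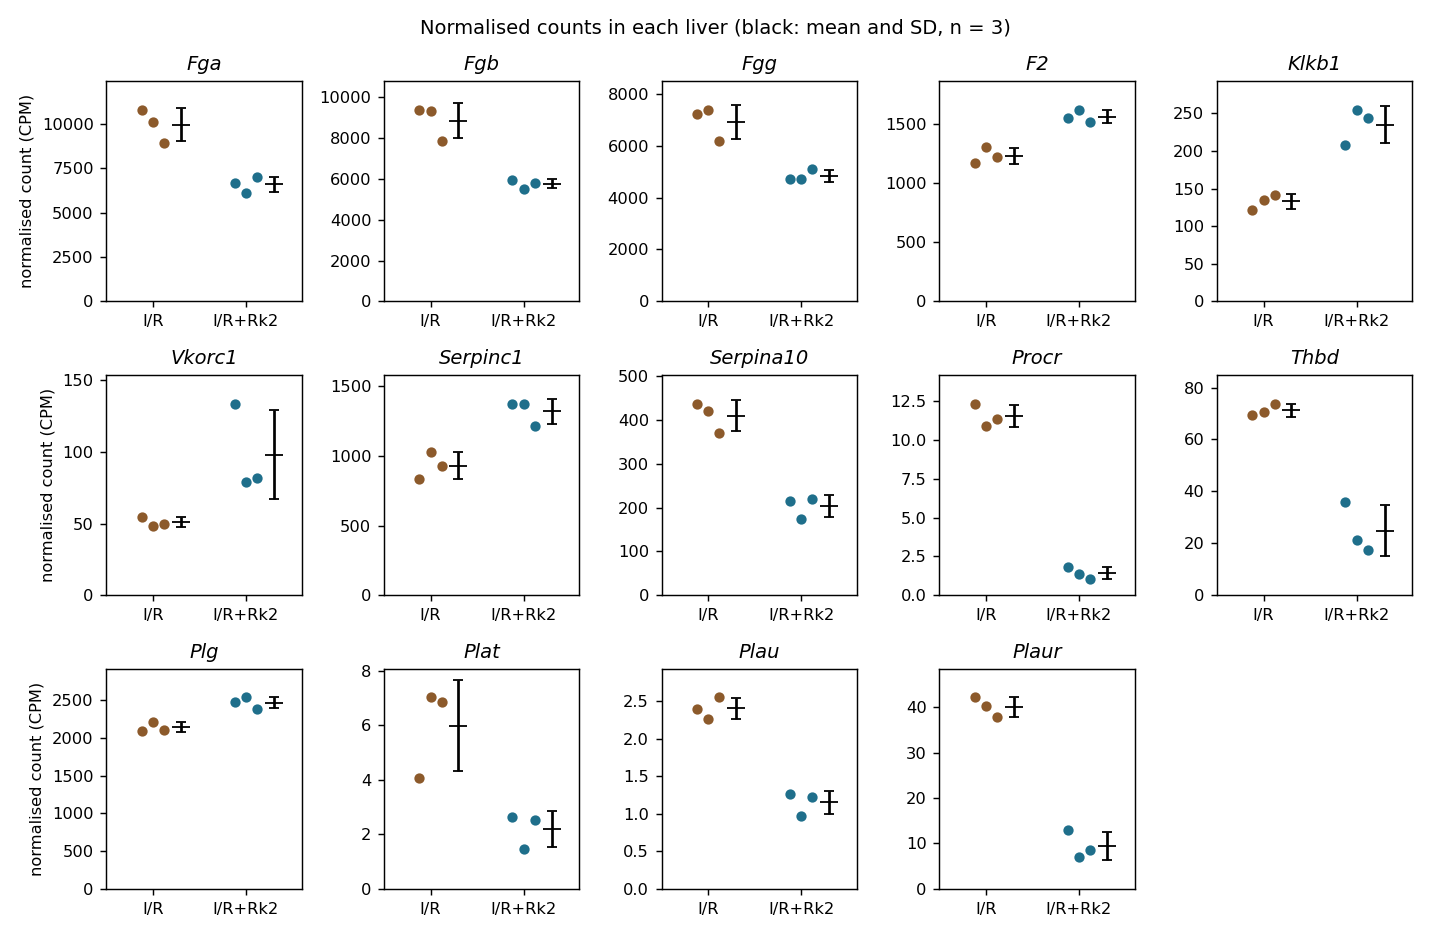
Normalised count (CPM, y axis from 0) of 14 named genes in each liver, with I/R in brown, I/R+Rk2 in blue and the mean and SD of 3 livers in black. In all 14 panels the points of the 2 groups lie apart. Fga, Fgb, Fgg, Serpina10, Procr, Thbd, Plat, Plau and Plaur are lower in I/R+Rk2, and F2, Klkb1, Vkorc1, Serpinc1 and Plg are higher, although Plg did not pass the test.

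Anticoagulant genes held the widest range of any class, from -3.02 to 0.65 on the log2 scale. Of the 9, 4 rose and 3 fell, all 3 by more than 2-fold. Of all genes tested 20.3% rose and 23.7% fell, 11.4% by more than 2-fold. The median of the 9 was 0.36, and it was lower with library size alone and by FPKM. In the protein C system the plasma zymogen and its activating receptors moved in opposite directions. Procr encodes the endothelial protein C receptor, which presents protein C to thrombin. It was at 12.4, 10.9 and 11.4 CPM in the I/R livers and at 1.81, 1.36 and 1.04 CPM in the I/R+Rk2 livers (chr2:155751117-155755471, plus strand). The lowest I/R liver was several times above the highest I/R+Rk2 liver. The 8.09-fold fall, -3.02 on the log2 scale (SE 0.20, edgeR adjusted p = 0.00024), was the largest change of the 37.

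Thbd encodes thrombomodulin, which turns thrombin from a clotting enzyme into the activator of protein C. It was at 69.2, 70.6 and 73.8 CPM in the I/R livers and at 36.02, 21.1 and 17.4 CPM in the I/R+Rk2 livers (chr2:148404466-148408188, minus strand). The I/R livers were close to each other, the I/R+Rk2 livers were spread, and the groups stayed apart. The log2 fold change was -1.51 (SE 0.25, edgeR adjusted p = 0.00343).
Proc, the protein C zymogen itself, rose from 231 ± 10.6 to 339.6 ± 11.6 CPM (0.56 on the log2 scale, edgeR adjusted p = 0.00224). Its cofactor Pros1 (protein S) was at 45.6 ± 3.33 and 42.99 ± 5.48 CPM, with overlapping groups and an edgeR adjusted p of 0.566.

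Of the 5 protease inhibitors, 3 rose, 1 fell and 1 did not pass. Serpina10 encodes the inhibitor that blocks factor Xa with protein Z as its cofactor. It was at 438, 421 and 370.3 CPM in the I/R livers and at 216, 175 and 219 CPM in the I/R+Rk2 livers (chr12:103614786-103631444, minus strand). The fall of 1.01 on the log2 scale (SE 0.12, edgeR adjusted p = 0.00114) lay at the limit of 2-fold. It passed the adjusted p under all 17 alternative settings, with a change of -0.91 to -1.22. Proz, protein Z itself, went the other way, from 240.1 ± 23.5 to 376 ± 6.01 CPM (0.65 on the log2 scale, edgeR adjusted p = 0.0024).

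Serpinc1 encodes antithrombin, the main plasma inhibitor of thrombin. It was at 833, 1026 and 930.3 CPM in the I/R livers and at 1369.6, 1376 and 1217 CPM in the I/R+Rk2 livers (chr1:160978585-161005863, plus strand). By counts the groups were apart, with a log2 fold change of 0.51 (SE 0.11, edgeR adjusted p = 0.0107). By FPKM they were not, at 355.8 ± 47.4 and 364 ± 73.6, and the log2 fold change was 0.02 with a limma adjusted p of up to 0.943. Count per 1000000 counts divided by FPKM, a length in kilobases, was 2.77 in I/R and 3.49 in I/R+Rk2, 1.26 times higher. In the other members the group mean of this length in I/R+Rk2 was 0.930 to 1.06 times that in I/R. Between single livers it varied more in some of them, from 4.86 to 8.58 in Vwf and from 1.24 to 1.76 in Plaur. Serpinc1 shares 34.4% of its exonic bases with Zbtb37 on the opposite strand, which had 321 counts over the 6 libraries against 164502 for Serpinc1, and the strand setting of the counting is not given in the sources used here. The part of that overlap in the difference between the units was not tested, and a rise of Serpinc1 is uncertain.

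Serpind1 (heparin cofactor II, another thrombin inhibitor) rose from 326 ± 14.3 to 488 ± 16.2 CPM (0.58 on the log2 scale, edgeR adjusted p = 0.00195). Tfpi, which inhibits the complex of tissue factor and factor VII, was at 3.66 ± 0.317 and 4.66 ± 0.949 CPM and did not pass (0.36 on the log2 scale, edgeR adjusted p = 0.184).

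The fibrinolytic class moved in different directions, and role and the cells that usually make these products cannot be told apart in it. The activators and the receptor of urokinase fell, plasminogen did not pass, and the inhibitors were level or slightly higher. Plg encodes plasminogen, the plasmin precursor. It was at 2095, 2217 and 2108 CPM in the I/R livers and at 2472, 2538 and 2389 CPM in the I/R+Rk2 livers (chr17:12378608-12419385, plus strand). Although the groups did not overlap, the log2 fold change of 0.20 (SE 0.09) had an edgeR adjusted p of 0.114, and DESeq2 gave 0.0301. Of its exonic bases, 11.3% are shared with Slc22a3 on the opposite strand.

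Plat encodes tissue plasminogen activator, which works on fibrin. It was at 4.07, 7.02 and 6.86 CPM in the I/R livers and at 2.65, 1.45 and 2.52 CPM in the I/R+Rk2 livers (chr8:22757727-22782844, plus strand). The groups were apart, with I/R liver 1 low within its group, and the log2 fold change was -1.46 (SE 0.31, edgeR adjusted p = 0.00911). On log2(FPKM + 1), which shrinks changes of low genes, it was -0.90 and passed.
Plau encodes urokinase, the activator that works at the cell surface. It was low throughout, at 2.40, 2.26 and 2.55 CPM against 1.26, 0.977 and 1.23 CPM (chr14:20836660-20843385, plus strand). The log2 fold change was -1.06 (SE 0.22, edgeR adjusted p = 0.00871). It was -0.94 without I/R+Rk2 liver 2 and -0.49 on log2(FPKM + 1), under 2-fold in both, and passed in both.
Plaur encodes the receptor that holds urokinase on leukocytes and other cells. It was at 42.2, 40.3 and 37.8 CPM in the I/R livers and at 12.9, 7.08 and 8.47 CPM in the I/R+Rk2 livers (chr7:24462484-24475968, plus strand). The lowest I/R liver was far above the highest I/R+Rk2 liver, and the 4.23-fold fall was -2.08 on the log2 scale (SE 0.22, edgeR adjusted p = 0.00075).

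Of the genes that slow fibrinolysis, Serpinf2 (alpha-2-antiplasmin, which blocks plasmin) was 0.32 higher (edgeR adjusted p = 0.029) and Hrg (histidine-rich glycoprotein, which binds plasminogen and heparin) 0.31 higher (edgeR adjusted p = 0.0368). Both calls were lost without any 1 of 5 of the 6 livers, with adjusted p of 0.0576 to 0.0911 for Serpinf2 and of 0.0559 to 0.112 for Hrg. Only the omission of I/R+Rk2 liver 3 kept Serpinf2, and only that of I/R+Rk2 liver 1 kept Hrg. Cpb2, the carboxypeptidase that removes plasminogen binding sites from fibrin, stood at 429 ± 4.94 and 431 ± 4.14 CPM, the smallest change of the 37 (0.01 on the log2 scale, edgeR adjusted p = 0.943).

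**Figure D3:**
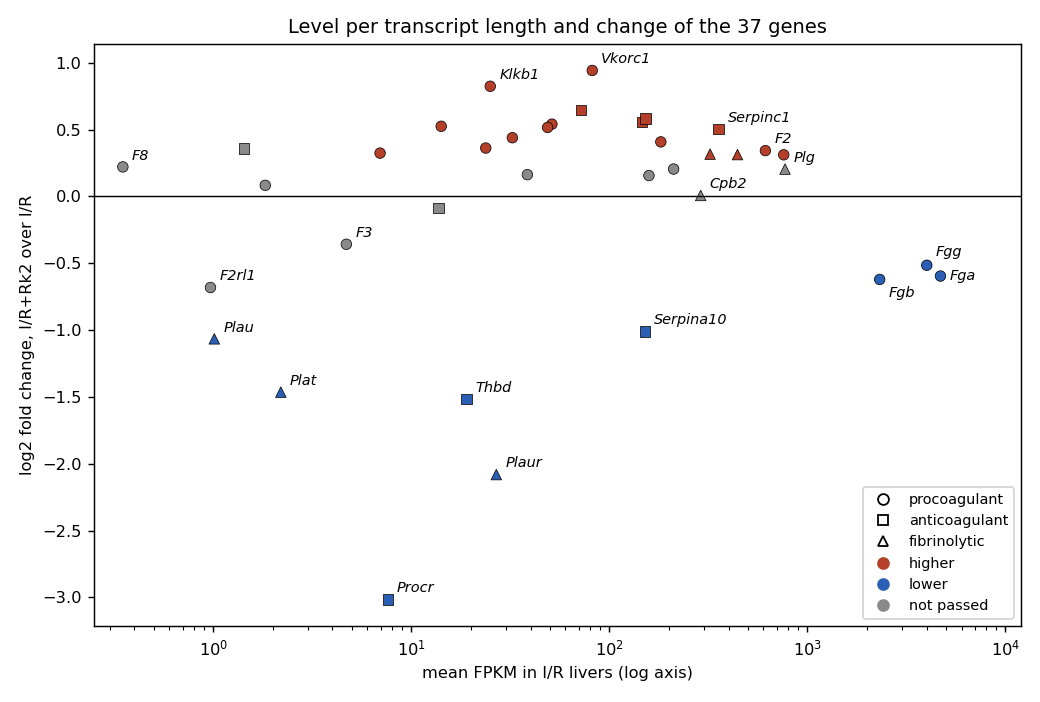
Mean FPKM of each of the 37 genes in the I/R livers (x axis, log scale) against its log2 fold change, I/R+Rk2 over I/R (y axis), with circles for procoagulant, squares for anticoagulant and triangles for fibrinolytic genes and colours as for the edgeR calls. The fibrinogen chains lie alone at the far right and below 0, most abundant factors lie just above 0, and Procr, Plaur, Thbd, Plat and Plau lie below -1 at under 30 FPKM.

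Levels per transcript length spanned 4 orders of magnitude. Fga (4698 FPKM in I/R), Fgg (4008) and Fgb (2317) stood highest, and in I/R+Rk2 they kept that order at 2786, 2505 and 1345 FPKM. Plg (771 FPKM in I/R), Kng1 (759.6) and F2 (614) followed. In the I/R livers Serpina10 (152 FPKM) and Serpind1 (152 FPKM) were level, and in the I/R+Rk2 livers Serpina10 was at 64.8 and Serpind1 at 206 FPKM. Plaur moved from rank 23 of 37 at 26.9 FPKM to rank 29 at 5.72 FPKM.

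Grouped by the cells that usually make them, the members differed in direction. Of 24 genes whose usual source is the hepatocyte, 14 rose and 4 fell (the 3 fibrinogen chains and Serpina10), with a median log2 fold change of 0.32. Over all 12411 genes tested 20.3% rose and 23.7% fell. With library size alone 7 of the 24 rose, and 1320 of all 12411 genes did. By FPKM 6 of the 24 rose, and without I/R liver 1, I/R liver 3 or I/R+Rk2 liver 2 between 8 and 9. In each of these settings 4 of the 24 fell, except without I/R+Rk2 liver 2, where 3 did. Of 11 whose usual source is other cells, 1 rose (F2r) and 5 fell (Procr, Thbd, Plat, Plau and Plaur), with a median of -0.68. The rise of F2r did not pass with library size alone or by FPKM. The summed level of these 11 was 177 to 193 CPM in the I/R livers and 88.4 to 116 CPM in the I/R+Rk2 livers. In whole liver, fewer cells of a type and less RNA per cell cannot be told apart.

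Marker genes of the cell types did not all move with these falls. All 10 monocyte markers and 9 of 10 neutrophil markers fell, and none of these 20 was at 0 counts in any library. Among all genes tested 20.3% rose and 23.7% fell. The neutrophil list summed to 525 to 645 CPM in I/R and 96.8 to 225 CPM in I/R+Rk2, and the monocyte list, to which Fn1 of hepatocytes also contributes, to 1715 to 2061 and 1171 to 1232 CPM. Of 10 endothelial markers 3 rose and 3 fell, with sums of 221 to 228 and 189 to 225 CPM. Of 10 hepatocyte markers 6 rose and 1 fell, with sums of 75494 to 86097 and 111841 to 134453 CPM. Of 8 Kupffer cell markers 0 rose and 2 fell, with sums of 65.1 to 101 and 48.0 to 61.6 CPM that did not overlap. Of 6 cholangiocyte markers 0 rose and 3 fell, with sums of 165 to 231 and 84.0 to 117 CPM that did not overlap either. Of 8 stellate cell markers 0 rose and 3 fell, with sums of 179 to 212 and 141 to 201 CPM. The part of cell composition in the members' changes was not tested. Totals ran from 16809613 to 35618074 counts per library, and the lowest count of any member in any library was 17.

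Other genes of the pathway, 26 outside the 37, moved in both directions. Of the 24 that could be tested, 4 rose, 8 fell and 12 did not pass, with a median log2 fold change of -0.13. The share called was near that of all genes tested, of which 43.9% passed, 20.3% higher and 23.7% lower. F13a1, the catalytic subunit of factor XIII, which monocytes and platelets carry, fell from 64.0 ± 7.28 to 1.82 ± 0.796 CPM (-5.15 on the log2 scale, edgeR adjusted p = 0.000215), while its plasma carrier F13b rose.

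Thbs1 (thrombospondin 1, a platelet and matrix glycoprotein) fell by 2.70 on the log2 scale, from 403 ± 27.7 to 61.9 ± 24.2 CPM (edgeR adjusted p = 0.000585). Anxa2, a cell-surface docking protein for plasminogen and its tissue activator, fell by 2.25, from 88.5 ± 9.002 to 18.6 ± 3.31 CPM (edgeR adjusted p = 0.00024). A2m, a broad plasma protease inhibitor, was low in both groups, at 1.09 ± 0.279 and 0.187 ± 0.0515 CPM (-2.55 on the log2 scale, edgeR adjusted p = 0.00277), and its counts in the I/R+Rk2 livers were 4 to 5.
The fibrinogen-like genes also fell. Fgl2, a membrane prothrombinase of macrophages and endothelium, was at 23.1 ± 2.70 and 7.37 ± 1.92 CPM (-1.66 on the log2 scale, edgeR adjusted p = 0.00134). Fgl1, secreted by hepatocytes, was at 555 ± 155 and 276 ± 88.01 CPM (-1.01 on the log2 scale, edgeR adjusted p = 0.0246), and its adjusted p was 0.0912 without I/R liver 1, 0.059 without I/R liver 3, 0.0523 without I/R+Rk2 liver 1 and 0.056 without I/R+Rk2 liver 2. Tfpi2, a protease inhibitor related to Tfpi that blocks plasmin, rose from 38.7 ± 8.34 to 89.6 ± 17.1 CPM (1.21 on the log2 scale, edgeR adjusted p = 0.00322).

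Genes of platelets and megakaryocytes gave a mixed count. Of 12, 9 could be tested, with 1 higher, 1 lower and 7 not passed, while 43.9% of all genes tested passed. The summed level of the list was 22.2 to 26.03 CPM in the I/R livers and 18.2 to 23.2 CPM in the I/R+Rk2 livers. The lower one, Itgb3, encodes the beta subunit of the platelet fibrinogen receptor, which macrophages and endothelium also express. It was at 9.57 ± 1.39 and 2.30 ± 0.241 CPM (-2.06 on the log2 scale, edgeR adjusted p = 0.000397). The higher one, Ppbp, was named after its values were seen and had an edgeR adjusted p of 0.0365.

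**Figure D4:**
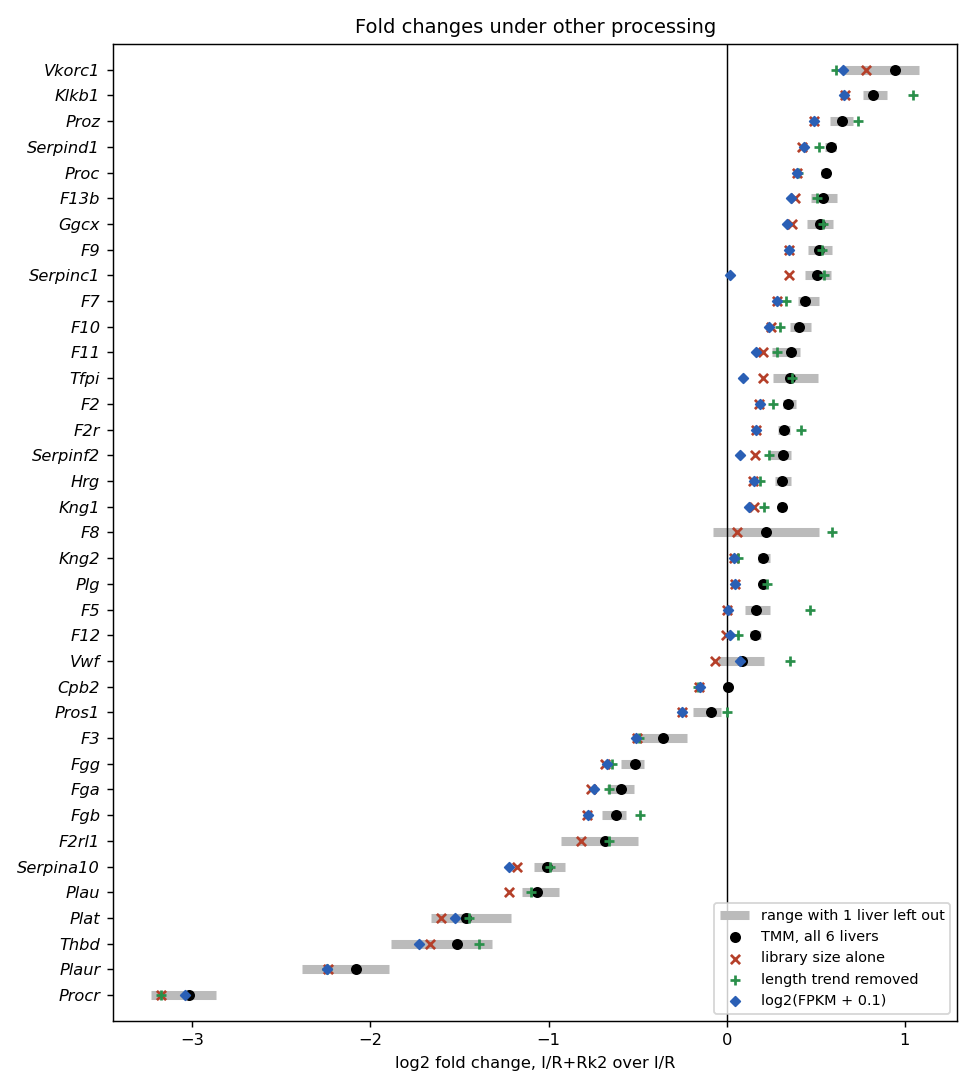
Log2 fold change of each of the 37 genes (x axis, I/R+Rk2 over I/R) under other processing, with TMM scaling in black, the range when 1 liver is left out in grey, library size alone as red crosses, a fit without the trend on gene length as green plus signs and log2(FPKM + 0.1) as blue diamonds (none for F8, F2rl1 and Plau, under a mean of 1 FPKM). Library size alone and FPKM lie left of most black points, the 6 genes that fell by more than 2-fold stay below -0.9, and Serpinc1 is near 0 by FPKM alone.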

How the data were processed

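Per the submitters' processing notes, reads were checked with FastQC 0.11.5, aligned to mm10 with HISAT2 2.2.1 and assembled with StringTie 1.3.3. The annotation and the strand setting are not given in the sources used here. The authors deposited whole-number counts per gene (the main values) and FPKM per gene (used for levels and for alternatives). Each library started from 250 ng of liver RNA. The counts look like StringTie estimates rounded up, which inflates the lowest ones.

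In R 4.3.3, edgeR 4.0.16 kept 12411 genes with filterByExpr, scaled libraries by TMM and tested I/R+Rk2 over I/R with quasi-likelihood F tests, all 6 libraries and no covariate. P-values were adjusted over all genes, with calls at an adjusted p below 0.05 and, counted apart, a fold above 2. SE is the absolute log2 fold change over the square root of F. Alternatives used limma 3.58.1 and DESeq2 1.42.0, other scalings and filters, removal of the trend of fold change on gene length, and each liver left out in turn. FPKM was analysed as log2(FPKM + 1) or log2(FPKM + 0.1), with a mean of at least 1 or no filter.

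Members given in full were those past both limits, the 3 largest called changes of each class, and Fga, Fgb, Fgg, F2, Serpinc1 and Plg. Of the other pathway and platelet genes, at most 10 past both limits were named. A result that this rule selects is not reported here, though it stayed in every test and count. Members and lists were chosen with earlier results of these data known. Positions and overlaps are from GENCODE for GRCm38, and promoters from RefSeq for GRCm38.p6. The fits were tested on simulated data. P-values measure the spread between 3 livers per group, and PCR copies are not independent molecules. Chi-square statistics between libraries of a group were 31.4 to 74.8 per degree of freedom, so no library was a copy of another.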

Additional observations from a re-analysis of the deposited data

How the results depend on the processing

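All 17 alternatives kept the direction of every called member, and 18 of 37 members kept their call in every alternative that tested them. Of the 9 falls, 9 passed in every fit on all 6 livers, except that Plau lay under the FPKM filter in 2 fits, and 8 passed without I/R+Rk2 replicate 2 (Fgg, 0.0518). On log2(FPKM + 1) Plat (-0.90) and Plau (-0.49) passed with a fold under 2. With the length trend removed F5 passed (0.47, 0.00717). The count of 17 rises fell to 9 with library size alone, to 7 in each FPKM fit and to between 10 and 15 with 1 liver left out. Procoagulant rises (11) were 5, 4 and between 6 and 10 in the same order. Fibrinolytic rises (2) were those of Serpinf2 and Hrg, which slow fibrinolysis. Of these, 0 passed with library size alone, the replicate block, the length trend removed and FPKM, and between 0 and 1 with 1 liver left out. Platelet rises (1) were 0 with library size alone, the block and the length trend removed, 2 with unfiltered FPKM, and between 0 and 1 with 1 liver left out.

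The median log2 fold change of all members (0.22) was 0.27 with upper-quartile scaling, 0.058 with library size alone, 0.063, 0.074 and 0.045 by log2(FPKM + 1), log2(FPKM + 0.1) and unfiltered FPKM, and 0.20 to 0.32 with 1 liver left out. The procoagulant median (0.31) was 0.36, 0.15, 0.15, 0.16, 0.13 and 0.26 to 0.34 in that order. The anticoagulant median (0.36) was 0.20 with library size alone, 0.021 in each FPKM fit and 0.26 to 0.51 with 1 liver left out. The fibrinolytic median (0.01) was -0.16 with library size alone, -0.16 with the length trend removed, -0.15 by unfiltered FPKM and -0.0042 to 0.024 with 1 liver left out. Library size alone and FPKM moved the median of all genes to -0.17 and as low as -0.15. The cause of the other changes was not tested.

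Signs reversed in 5 members, none of them called. With 1 liver left out, F8 ran from -0.078 (without I/R replicate 2) to 0.52 and Vwf from -0.049 (without I/R replicate 1) to 0.21. With library size alone Vwf was -0.065. F12 was -0.0030 there, and Pros1 was 0.0015 with the length trend removed. Cpb2 was -0.16 with library size alone, -0.0097 with at least 10 counts in every library, -0.16 with the length trend removed, -0.15 in each FPKM fit and -0.0042 without I/R replicate 3.

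Livers of the 2 groups share replicate numbers, and correlations of same-numbered deviations from the group means were -0.031, 0.048 and -0.024, so the numbers were not taken to pair them, and not every liver correlated best with its own number. With replicate number as a block, 24 of 37 members passed, Serpinf2 (0.0506) and Hrg (0.0502) did not, and the median over members was 0.30. Depth limits the genes with the fewest counts most, among the members Plau, F2rl1, F8, Plat, Tfpi and Procr (17 counts in I/R+Rk2 replicate 3), and A2m among the others.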
